A study of Mus musculus with 38 samples.

Results

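Brown fat is a heat-producing organ that also secretes signalling proteins, and 9 genes for such proteins are described here: Nrg4, Bmp8b, Bmp4, Bmp7, Vegfa, Vegfb, Igf1, Il6 and Gdf15. They were chosen by name, as the gene name that the scanner files give to a probe, and all 9 were found among the 29411 gene names of the array, with 16 of its 40628 probes. The study followed brown adipose tissue of C57BL/6J mice over a course of diet on 38 arrays with 1 colour. LFC mice received a low fat control diet with 10% of calories from fat, and HFC mice a high fat, high sucrose diet with 60%. HF5, HF20 and HF75 mice received the HFC diet with 5, 20 or 75 µg of KAL-1, an aqueous botanical formulation. LFC and HFC each had 10 arrays (Days 6, 10 and 14, and Weeks 0, 3, 6, 9, 12, 15 and 18), and each KAL-1 group had 6 (Weeks 3 to 18). Mice entered the diets at 3 to 4 weeks of age in groups of 30, and 5 per group were taken every 3 weeks, without sex being given. Each group had 1 array at a time point. Its time points were therefore taken as replicates, and nothing says whether an array held 1 animal or a pool. The p values between groups measure the spread left between arrays once their shared time point is taken out. In fits without the time point, such as the trend over days, they measure the spread between arrays, time points included.

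Secreted factors of brown fat are often called batokines. Neuregulin 4 (Nrg4) is secreted by brown adipocytes and acts on the liver through ErbB receptors. The bone morphogenetic proteins Bmp7, Bmp4 and Bmp8b belong to the transforming growth factor beta family and signal through Smad proteins: Bmp7 promotes the making of brown adipocytes, Bmp4 commits precursor cells to the adipocyte lineage, and Bmp8b raises the response of brown fat to noradrenaline. Vegfa drives the growth of blood vessels, on which heat production depends, and Vegfb is a relative that binds the receptor encoded by Flt1. Igf1 carries the growth-promoting action of growth hormone. Il6 is a cytokine that many cells release under stress or adrenergic drive, and Gdf15 is a stress-induced hormone that acts on the hindbrain to curb food intake.

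Each level below comes from 1 probe per gene, the one with the highest mean of those for that gene. The first 30 bases of the 60-base probes are printed here, since they fix which transcript each value measures, and no part is in capitals because no stretch was singled out. On the transcripts, these were NM_032002 for Nrg4, NM_007559 for Bmp8b, NM_007554 for Bmp4, NM_007557 for Bmp7, NM_009505 for Vegfa, NM_011697 for Vegfb, NM_010512 for Igf1, NM_031168 for Il6 and NM_011819 for Gdf15.
Nrg4: atgtgtcccatcatttctatggcagtccca
Bmp8b: cagctaatgaaaaaacctattgcggattta
Bmp4: gtccaggaagaagaataagaactgccgtcg
Bmp7: gctggcgtctgtgttgaagggaaaccaagc
Vegfa: actggattcgccattttcttatatctgctg
Vegfb: atgataactgtgacacacacacacactcac
Igf1: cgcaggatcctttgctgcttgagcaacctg
Il6: atattctgttacctagccagatggtttctt
Gdf15: ccccggtggttcttatgcacaggacagaca
The closest probe of any other gene differed from the Il6 probe at 25 positions and from each of the other 8 probes at 29 or more. The genes lie on chromosomes 9 (Nrg4), 4 (Bmp8b), 14 (Bmp4), 2 (Bmp7), 17 (Vegfa), 19 (Vegfb), 10 (Igf1), 5 (Il6) and 8 (Gdf15).

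The 250 bases before the start site are printed for the 4 genes whose levels separated bright from dim arrays, Il6, Gdf15, Vegfa and Nrg4. They come from RefSeq on GRCm38.p6, which matched 8 of the 9 genes (not Bmp7), and for Gdf15 and Vegfa the first of the listed start sites is given. Capitals mark every match to 8 motifs, each searched on both strands. The motif of the AP-1 proteins was TGANTCA. That of C/EBP was TTGCNNAA. The core of the cyclic AMP response element was TGACG. The motif of NF-kappaB is given by its name alone. The motif of Sp1 was GGGCGG. The nuclear receptor half-site was AGGTCA. The hypoxia response core was ACGTG. The TATA box was TATAAA.
Il6, chr5:30012864-30013113, plus strand: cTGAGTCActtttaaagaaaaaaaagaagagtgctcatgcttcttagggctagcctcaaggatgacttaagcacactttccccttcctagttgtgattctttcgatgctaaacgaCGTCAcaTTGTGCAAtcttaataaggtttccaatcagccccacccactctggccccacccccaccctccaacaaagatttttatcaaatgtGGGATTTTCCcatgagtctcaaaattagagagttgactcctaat
Gdf15, chr8:70632457-70632706, minus strand: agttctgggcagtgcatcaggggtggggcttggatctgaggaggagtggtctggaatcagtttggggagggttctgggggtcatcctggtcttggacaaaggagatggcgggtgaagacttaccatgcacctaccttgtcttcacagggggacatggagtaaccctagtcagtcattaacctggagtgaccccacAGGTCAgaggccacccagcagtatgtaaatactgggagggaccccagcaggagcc
Vegfa, chr17:46032378-46032627, minus strand: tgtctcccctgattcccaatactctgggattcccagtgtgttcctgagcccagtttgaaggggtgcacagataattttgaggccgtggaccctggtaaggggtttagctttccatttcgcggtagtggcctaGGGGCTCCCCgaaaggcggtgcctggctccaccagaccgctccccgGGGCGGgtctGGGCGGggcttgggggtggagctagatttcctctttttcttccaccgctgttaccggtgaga
Nrg4, chr9:55283626-55283875, minus strand: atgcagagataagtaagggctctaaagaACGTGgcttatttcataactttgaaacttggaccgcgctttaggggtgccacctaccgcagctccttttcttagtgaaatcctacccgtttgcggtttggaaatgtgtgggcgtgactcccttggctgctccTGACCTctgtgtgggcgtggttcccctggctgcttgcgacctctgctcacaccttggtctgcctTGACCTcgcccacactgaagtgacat
The Il6 window held 4 of the 8 motifs. Of the 32851 RefSeq promoters of this length, 6.75% held the AP-1 letters, 9.56% the C/EBP letters, 17.8% the cyclic AMP core and 7.25% the NF-kappaB motif. The Nrg4 window held 2 nuclear receptor half-sites, which 14% of promoters hold, and 1 hypoxia core, which 16.6% hold. The Vegfa window held 2 Sp1 matches, a motif in 32.7% of promoters, and 1 NF-kappaB match. The Gdf15 window held 1 nuclear receptor half-site. The TATA letters, present in 12.4% of promoters, were found in none of these 4 windows, and a match is only a match of letters.

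The arrays differed in overall brightness. An array's 75th percentile of signal was 183 intensity units at the median, 35.1 at the lowest and 1209 at the highest, and 36.6% to 78.8% of its probes stood well above background. At a boundary of 600 units, 11 arrays were bright and 27 were dim, with no array between 430 and 625. The bright arrays were 4 of 10 in LFC, 2 of 10 in HFC, 0 of 6 in HF5, 4 of 6 in HF20 and 1 of 6 in HF75. The 38 arrays lay on 32 slides and were scanned on 12 days. One bright array, HF75 at Week 3, stood apart in its tissue markers: Ucp1, the uncoupling protein of brown fat, was at -3.07 there against 3.38 to 8.57 on the other 37 arrays, and Cidea was at -1.78 against 5.58 to 8.77. Zic1, Elovl3 and Lhx8 were not well above background on it, and Prdm16 was at 1.67, the median of the others. Its summed macrophage marker level was 4.40, the highest of all 38 arrays. This array thus held the defining markers of brown fat at low levels or not above background, apart from Prdm16, and the dose comparisons and the comparison of bright with dim arrays are given with and without it. On the other 37 arrays Ucp1, Cidea, Cox7a1 and Cox8b were well above background without exception.

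The levels of the 9 genes are given as log2 processed signal minus the array's 75th percentile, a scale on which 0 is that percentile. Levels are compared between arrays for 1 gene at a time and never between genes, because probes differ in how brightly they light up. In bulk tissue, fewer cells of a type and less RNA per cell cannot be told apart.

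Nrg4 was well above background on all 38 arrays. Its level was -1.02, -0.07 and 4.04 (lowest, median and highest) in LFC, -0.43, 0.96 and 3.80 in HFC, and -0.36, 0.49 and 2.71 in HF5. In HF20 it was 1.15, 3.22 and 4.39, and in HF75 -2.84, 0.05 and 0.59. Every HF20 array therefore lay above every HF75 array, as 3.76% of the 21856 genes tested did, while all other pairs of groups overlapped for Nrg4. The HF75 minimum was the Week 3 array, the one that stood apart in its markers.

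Among the bone morphogenetic proteins, Bmp4 was well above background on 34 arrays. Its level was -4.78, -2.01 and -0.69 in LFC and -4.91, -1.92 and -0.62 in HFC. It was -2.76, -1.29 and -0.66 in HF5, -4.88, -3.54 and -2.86 in HF20, and -2.75, -2.32 and -0.44 in HF75. All HF20 arrays lay below all HF5 arrays (0.581% of genes tested) and below all HF75 arrays (0.911% of genes tested). HF20 overlapped LFC and HFC. In HF20, Bmp4 was well above background on the 4 bright arrays only. The highest HF20 value, -2.86, and the lowest HF75 value, -2.75, both at Week 9, were not well above background. The lowest HF5 value was -2.76, so the gaps are narrow and rest on values close to background. Bmp4 and Nrg4 gave the 3 non-overlapping pairs out of 90, taken over 10 group pairs and 9 genes.

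Bmp7 was near the detection limit, being well above background on 8 of 10 LFC, 6 of 10 HFC, 1 of 6 HF5, 4 of 6 HF20 and 2 of 6 HF75 arrays. Its group medians ran from -4.47 in HF5 to -3.24 in HFC, and all groups overlapped. Bmp8b was fainter still. It was well above background on 4 LFC arrays, 1 HFC array, 2 HF20 arrays and on no array of HF5 or HF75, so its differences from those 2 groups carry no measured size. Its recorded values ran from -8.54 to -3.39 across the arrays and are read here as close to background.

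The vessel growth factors were detected throughout. The Vegfa level was -0.70, 0.71 and 4.39 in LFC, -0.39, 0.73 and 4.60 in HFC, and -0.48, 0.61 and 1.21 in HF5. It was 0.05, 4.14 and 4.77 in HF20, and -0.72, -0.22 and 0.47 in HF75. Vegfa values came in 2 separate bands, with nothing between 1.21 and 3.41, and 4 of the 6 HF20 arrays were in the upper band. Vegfb was more even, with group medians of 4.07 in LFC, 4.71 in HFC, 4.45 in HF5, 5.29 in HF20 and 4.09 in HF75. The range of Vegfb was narrowest in HF20, from 4.82 to 5.72, and in HF75 it ran from 1.87 to 4.90, with the minimum again on the Week 3 array.

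Igf1 was well above background on all 38 arrays. Its level was 0.0015, 0.90 and 2.21 in LFC, -0.34, 0.47 and 1.12 in HFC, and 0.44, 0.88 and 1.42 in HF5. It was 0.67, 1.42 and 1.99 in HF20, and -0.42, 0.20 and 3.01 in HF75. The 5 groups overlapped, and the HF75 maximum was the Week 3 array.

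The stress-responsive factors Il6 and Gdf15 ranged widely from array to array. The Il6 level was -7.71, 2.15 and 5.28 in LFC, -6.57, 2.81 and 4.88 in HFC, and 1.45, 2.27 and 4.77 in HF5. It was -7.58, -4.14 and 2.89 in HF20, and 0.36, 2.82 and 5.92 in HF75. Il6 was well above background on all 6 arrays of HF5 and HF75, but on 7 of 10 in LFC, 8 of 10 in HFC and 4 of 6 in HF20. The Gdf15 level was -4.02, 0.55 and 3.58 in LFC, -3.55, 0.46 and 2.33 in HFC, and 0.13, 1.42 and 3.13 in HF5. It was -3.83, -2.40 and 1.20 in HF20, and -0.57, 0.75 and 3.57 in HF75. For both genes the groups overlapped, and within LFC, HFC and HF20 some arrays sat many log2 units below others of their group.

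**Figure D1:**
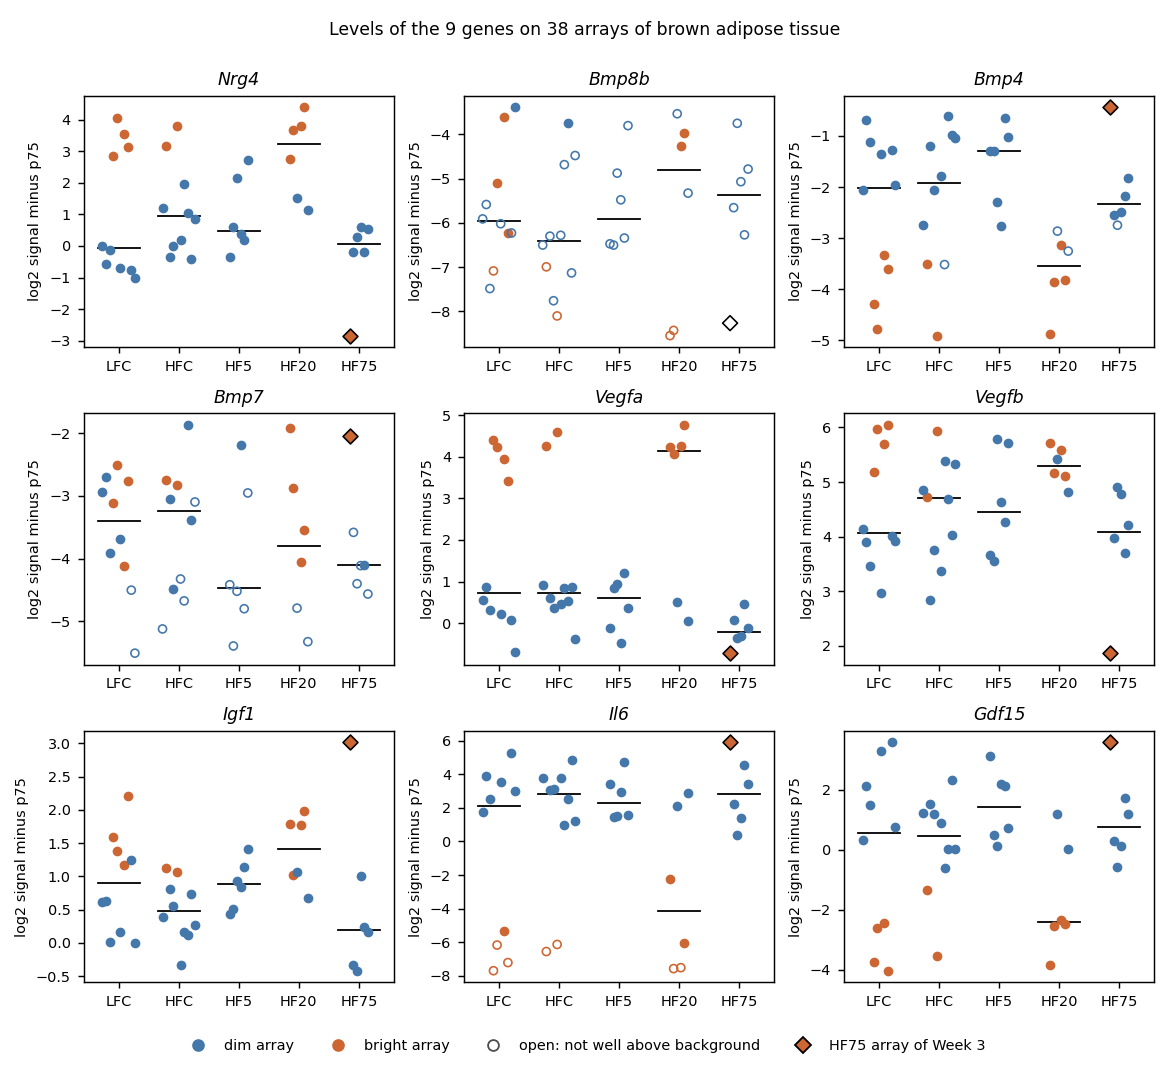
Level of each of the 9 genes (y axis, log2 processed signal minus the 75th percentile of the array) in the 5 groups (x axis), 1 point per array, with the group median as a line; colour gives the brightness class, open points are not well above background, and the diamond is the HF75 array of Week 3. Vegfa, Il6 and Gdf15 fall into separate bands within LFC, HFC and HF20, and the bands follow the colour.

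Those bands followed the brightness of the arrays. Leaving aside the HF75 array of Week 3, the 10 other bright arrays lay above all 27 dim arrays for Nrg4 and Vegfa and below all of them for Il6 and Gdf15, and the remaining 5 genes overlapped. Of all genes tested, 6.68% lay wholly above and 5.75% wholly below. The classes were drawn from each array's 75th percentile, which is also subtracted from every value, so the 2 are not independent measures, and the median change of all 21856 genes between the classes was -0.31. With quantile normalization, which subtracts no percentile, the median over all 38 arrays was 0.06.

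Vegfa was at 3.41, 4.25 and 4.77 on the 10 bright arrays and at -0.70, 0.37 and 1.21 on the 27 dim ones. The bright mean was higher by 3.88 (SE 0.20, adjusted p = 3.54e-16 by limma), or 14.7-fold, the 51st highest change of 21856 genes. Nrg4 was at 2.76, 3.61 and 4.39 on the bright arrays and at -1.02, 0.20 and 2.71 on the dim ones. It was higher by 3.22 (SE 0.33, adjusted p = 3.74e-10), or 9.32-fold. Both genes rose with the bright class in LFC, HFC and HF20 alike: the bright medians of Vegfa were 4.10 in LFC, 4.43 in HFC and 4.24 in HF20, and its dim medians 0.27, 0.58 and 0.27.

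Il6 was at -7.71, -6.37 and -2.21 on the bright arrays, where 3 of 10 were well above background, and at 0.36, 2.96 and 5.28 on the dim arrays, where all 27 were. Its change was -9.35 (SE 0.60, adjusted p = 2.5e-14), a size that rests on values close to background on the other 7 bright arrays. It also depends on how background is handled: over all 38 arrays it was -7.61, against -7.23 with values floored at background, -6.81 with quantile normalization and -3.81 with the normexp background correction. Gdf15, measured well above background on every array, was at -4.02, -2.57 and -1.32 on the bright and at -0.61, 1.20 and 3.58 on the dim arrays. It was lower by a log2 change of -4.14 (SE 0.45, adjusted p = 1.74e-09), or 17.7-fold. The HF75 array of Week 3, bright by its percentile, went against this for all 4 genes: Il6 was at 5.92, Gdf15 at 3.57, Vegfa at -0.72 and Nrg4 at -2.84.

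Of the other genes, Bmp4 was lower on the bright arrays by a log2 change of -2.12 (SE 0.33), with levels of -4.91, -3.84 and -3.13 against -3.52, -1.83 and -0.62. Igf1 was higher by 0.93 (SE 0.19) and Vegfb by 1.28 (SE 0.32). Bmp7 was higher by 1.12 (SE 0.39, adjusted p = 0.014), a size that rests in part on values close to background. It was well above background on all 10 bright arrays but on only 10 of the 27 dim ones. Over all 38 arrays it was 0.35 (adjusted p = 0.351) with values floored at background, and it turned to -1.14 with normexp. Bmp8b did not pass (-0.86, SE 0.61, adjusted p = 0.217), but over all 38 arrays it passed with normexp (-2.17, adjusted p = 1.02e-06) and with the floor (-1.90, adjusted p = 0.000151), and was at 0.29 with quantile normalization. In all, 8 of the 9 genes passed, 5 higher and 3 lower on the bright arrays, where 64.1% of all genes tested did. With the HF75 array of Week 3 included, 7 passed against a background of 62.3%, and Vegfb was the one lost (0.78, SE 0.36, adjusted p = 0.0606).

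Endothelial and erythroid markers moved with the same classes. Among all genes tested, 25.5% were higher on the bright arrays and 38.6% lower, and the counts below stand beside these shares. All 6 endothelial markers were lower on the bright arrays, and the summed endothelial level was 3.59 to 4.82 there and 6.28 to 7.68 on the dim ones. All 5 erythroid markers were lower too (6.84 to 7.78 against 8.21 to 11.9), as were 3 of 7 lymphocyte markers. Of 10 brown adipocyte markers 5 were higher, and their summed level overlapped (7.87 to 8.73 against 7.03 to 10.4). Of white adipocyte markers 3 of 5 were higher and 1 lower, and 1 of 7 macrophage markers was lower. Of skeletal muscle markers 1 of 10 was higher, as was 1 of 6 stromal cell markers. The part of these cell types, and of the arrays' brightness, in the levels of the 9 genes was not tested.

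**Figure D2:**
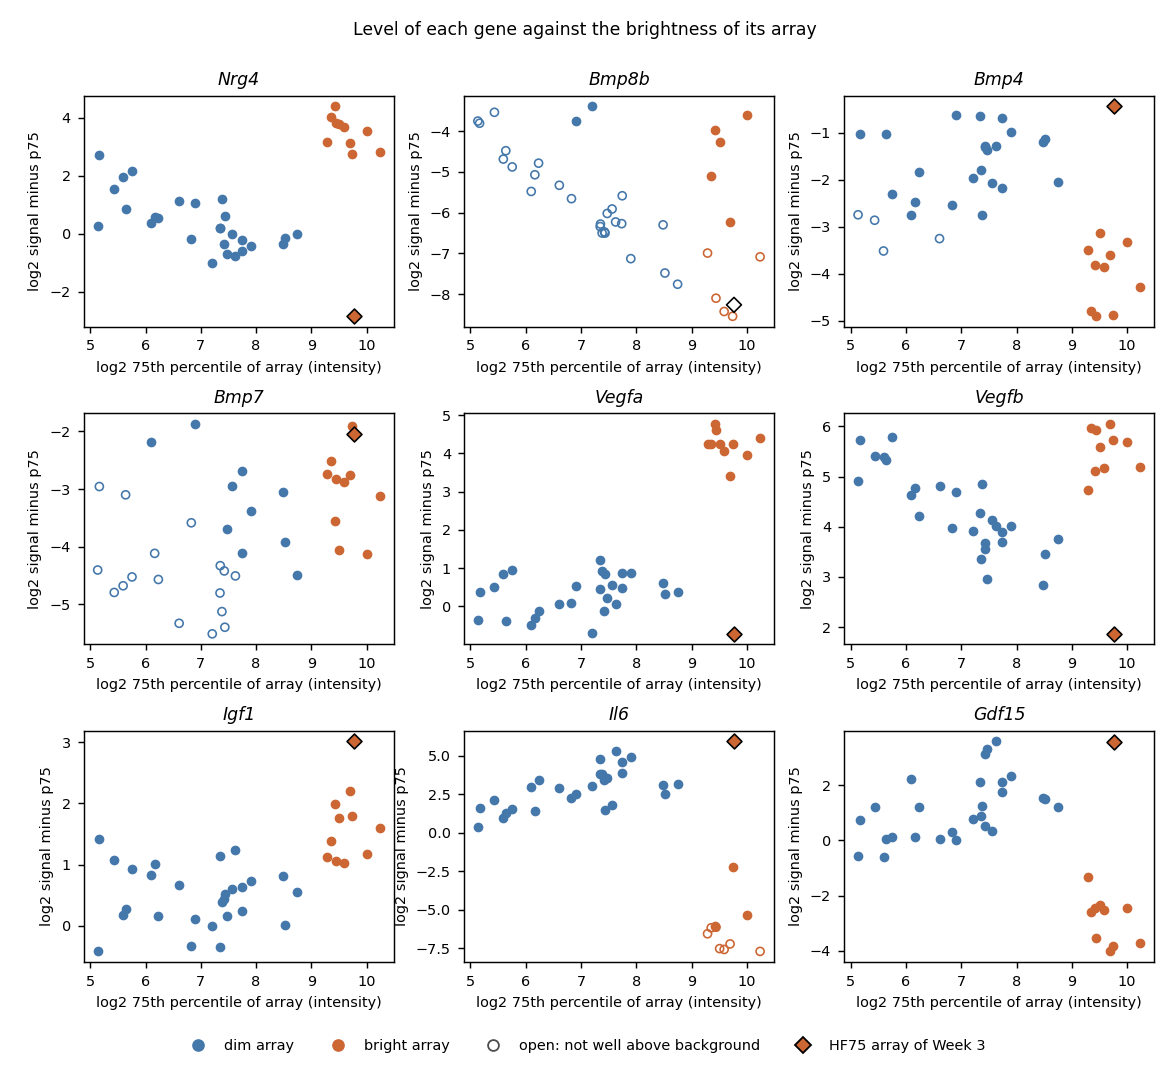
Level of each gene (y axis, log2 processed signal minus the 75th percentile) against the log2 75th percentile of its array (x axis), with dim arrays in blue, bright arrays in orange, open points not well above background, and the HF75 array of Week 3 as a diamond. Il6 and Gdf15 drop and Vegfa and Nrg4 rise between the 27 dim and the other 10 bright arrays, while the diamond lies on the opposite side for all 4.

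Within the 27 dim arrays the genes were related in pairs. Of 45 relations among the 9 genes and brightness, 14 passed after adjustment over the 45, by two-sided permutation tests. Of these, 4 involved Bmp8b, which was well above background on 2 of the 27 arrays, and they are not read here, since a level close to background minus the percentile falls as the percentile rises. The other 10 lay among Nrg4, Vegfb, Il6, Gdf15 and brightness. Nrg4 and Vegfb went together (r = 0.83, rho = 0.77, permutation p = 1e-05 each, the smallest they can give, adjusted p = 0.000112), with r = 0.76 without the 2 arrays farthest from the median. Il6 and Gdf15 went together as well (r = 0.79, rho = 0.81, the same permutation p values), with r = 0.72 without the 2 farthest. Nrg4 ran against both Il6 (r = -0.55, adjusted permutation p = 0.0158) and Gdf15 (r = -0.57, adjusted permutation p = 0.0106). Brightness within the dim class was related to Vegfb (r = -0.83), Nrg4 (r = -0.70), Il6 (r = 0.63) and Gdf15 (r = 0.52). Thus for Nrg4, Vegfb, Il6 and Gdf15 the sign within the dim arrays was opposite to that between the classes. These arrays come from all 5 groups, and each array's percentile, the measure of its brightness, is subtracted from every value. The relations between these genes were not tested apart from their relations with brightness. The share of all genes related to brightness within the dim arrays is not given here.

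The genes whose pattern over the 38 arrays was most like each of these were found by Pearson r among 13906 genes, after the linear part of brightness had been removed. For Il6 they were Hbegf (r = 0.96), an EGF family growth factor, Selp (0.96), the endothelial and platelet adhesion protein P-selectin, and Nfkbiz (0.96), a regulator of NF-kappaB, with r of 0.84, 0.85 and 0.83 within the dim arrays. For Gdf15 they were Rnd1 (0.92), Adm (0.92), which encodes the vessel-dilating peptide adrenomedullin, and Tifa (0.92). For Nrg4 they were Coq10a (0.98), Hibch (0.98) and Ndufs3 (0.98), all of which encode mitochondrial proteins, with r of 0.96, 0.92 and 0.95 within the dim arrays. For Vegfa they were Gnpat (0.96), 2010107E04Rik (0.95) and Clstn3 (0.95), but within the dim arrays r was 0.62, 0.35 and 0.32. For Vegfb they were the transcript XM_001479647 (0.95), Ndufc1 (0.95), a subunit of respiratory complex I, and Gm13352 (0.95). For Igf1, Gsta3 (0.73), Tctex1d2 (0.72) and Nupr1 (0.70) came first, with r of 0.52, 0.60 and 0.63 within the dim arrays. For Bmp4 they were Gata6 (0.85), Plat (0.81) and Pthlh (0.81), with 0.64, 0.39 and 0.72 within the dim arrays, and for Bmp7, Fndc1 (0.70), Stmn4 (0.67) and Dapk1 (0.65), with 0.68, 0.64 and 0.61. Without the HF75 array of Week 3, r was 0.73, 0.73 and 0.71 for the genes named with Igf1, which then ranked 22, 25 and 49, and 0.93 for Clstn3, which ranked 12 for Vegfa. The other genes named all stayed among the first 8. Bmp8b was above background on too few arrays for this.

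The first comparison the design implies is that of the diets. Over the 10 time points, no difference between HFC and LFC was called in the 9 genes: 0 passed the adjusted threshold of 0.05 (limma, time point as a block), as did 0% of all genes tested, and 0 had an unadjusted p under 0.05, where 6.96% of genes did. The methods' t-test, meant for replicates within a time point but run here on the time points of each diet, gave 0 of the 9 genes at either level, with 906 genes unadjusted and 0 adjusted. Il6 was 1.72 higher in HFC (SE 1.71, adjusted p = 0.718), and Vegfa was at -0.42 (SE 0.63, adjusted p = 0.802). Igf1 was at -0.41 (SE 0.27, adjusted p = 0.645), lower in HFC at 7 of 10 time points, and Nrg4 was at 0.11 (95% interval -1.12 to 1.34). The intervals are wide, so a p that missed the threshold does not show equal levels.

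Where the arrays of a pair differed in brightness, the differences of Vegfa and Il6 were large and followed it. At Day 10, the time point at which HFC alone was bright, Vegfa was 3.38 higher in HFC. Il6 was not well above background on that HFC array, so the size of its recorded log2 difference, -10.4, rests on a value close to background. At the 3 time points at which LFC alone was bright, Vegfa differed by -4.03 to -2.87. Il6 was 6.32 higher in HFC at Week 9. Its recorded differences at Weeks 0 and 12 were 10.8 and 9.76. On those 2 LFC arrays Il6 was not well above background, so these sizes depend on how background is handled. For these 2 genes, the 6 time points with both arrays in 1 class gave much smaller values. There Vegfa was 0.40 higher in HFC (SE 0.15, p = 0.0348 by limma, adjusted p = 0.836), with the same sign at all 5 dim pairs, from 0.25 to 0.81, and at the bright pair, 0.36. With the class as a term in the model, Nrg4 was 0.69 higher in HFC (SE 0.24, p = 0.0154, adjusted p = 0.679), Il6 was at -0.17 and Gdf15 at -0.46, the last 2 having turned in sign. None of these passed after adjustment. Over the 10 time points, without the class in the fit, 6.96% of all genes tested had an unadjusted p under 0.05. Of the lymphocyte markers 6 of 7 had one, all with positive differences. So had 4 of 10 brown adipocyte markers, with Ucp1 at 1.17 (SE 0.33), Cox7a1 at 0.75 (SE 0.29), Cox8b at 0.79 (SE 0.33) and Elovl3 at -2.98 (SE 0.83). None of either list passed after adjustment, and their part in the levels of the 9 genes was not tested.

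Over weeks 3 to 18, in the fit with all 5 groups, 0 of the 9 genes passed in HFC against LFC, where 0.00915% of genes did, and 0 at an unadjusted p, where 14.4% did. Igf1 had the smallest p (-0.69, SE 0.38, adjusted p = 0.377), and was lower in HFC at 5 of 6 weeks. At the 4 weeks with both arrays in 1 class Gdf15 was at -1.33 (SE 0.35, p = 0.0111 by limma, adjusted p = 0.811) and the faint Bmp8b at -1.31 (SE 0.49, p = 0.0395, adjusted p = 0.811). Without the HF75 array of Week 3, which enters the shared spread, Igf1 had an unadjusted p of 0.0259 by limma (-0.69, SE 0.29, adjusted p = 0.321).

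The course over time was asked with a slope per 100 days on diet. Over LFC and HFC together 0 of the 9 genes passed, against 1.68% of all genes. At an unadjusted p the trend took in 1 of them, where 21.2% of genes were: Bmp8b, the faint one, with a slope of 1.58 (SE 0.54, adjusted p = 0.104 by limma). On LFC arrays it was well above background at Weeks 3, 9, 12 and 18 and on HFC arrays at Week 12, and at none of the time points up to Week 0. Whether the slope differed between the diets was tested by the product of diet and day, in which 0 of the 9 passed, against 0% of genes, and 1 had an unadjusted p under 0.05, against 15.3%. This was Bmp7, with a product of 2.01 per 100 days (SE 0.63, p = 0.0086, adjusted p = 0.153). In LFC it was at -2.94 at Day 6 and at -5.51 at Week 18, the latter not well above background, and in HFC at -5.12 and -3.10, both not well above background. Of these 4 values 3 are therefore close to background. Once brightness class was a term of the fit, the slope of Vegfa was -0.59 (SE 0.18, p = 0.0041, adjusted p = 0.0511) and that of Bmp8b 1.54 (SE 0.55, adjusted p = 0.088). With brightness as a covariate instead, 0 of the 9 genes had an unadjusted p under 0.05 for the trend (smallest p = 0.0577 by limma).

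**Figure D3:**
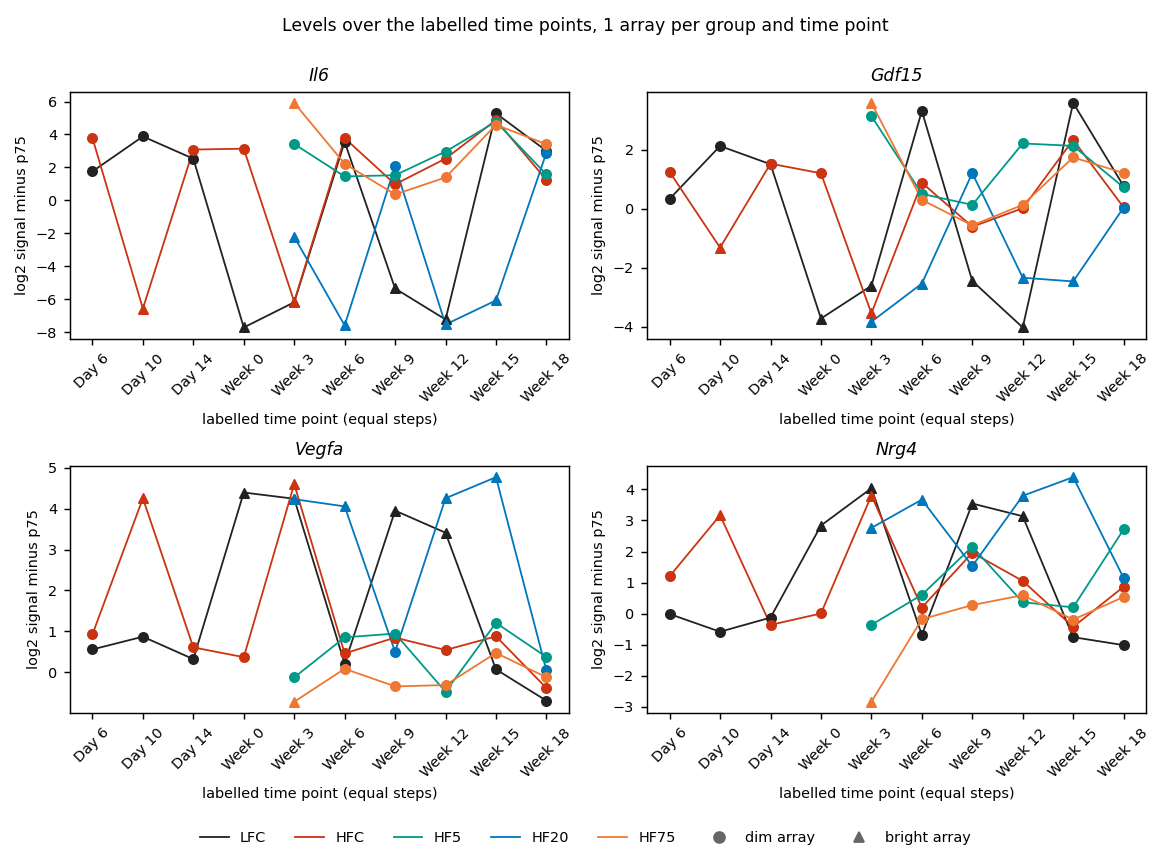
Levels of Il6, Gdf15, Vegfa and Nrg4 (y axis, log2 processed signal minus the 75th percentile) over the labelled time points (x axis, equal steps), 1 array per group and time point, with lines joining a group's arrays and triangles for bright arrays. Il6 and Gdf15 fall, and Vegfa and Nrg4 rise, at the time points with a triangle, except at Week 3 of HF75.

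The KAL-1 doses were compared with HFC at the same weeks, and all 3 comparisons share the HFC arrays. In HF5, 0 of the 9 genes passed, as did 0% of all genes, and 0 had an unadjusted p under 0.05, against 5.47%. Igf1 was at 0.54 (SE 0.38, adjusted p = 0.826) and Gdf15 at 1.62 (SE 1.14, adjusted p = 0.826). Without the HF75 array of Week 3, which enters the shared spread, again 0 of the 9 genes passed (smallest p = 0.075 by limma, smallest adjusted p = 0.799). All HF5 arrays were dim, and 5 of the HFC arrays they are set against were dim as well. At those 5 weeks Igf1 was 0.41 to 1.14 higher in HF5 each time, by 0.78 on average (SE 0.24, p = 0.0124 by limma, adjusted p = 0.256). Gdf15 differed there by -0.38 to 2.19, with a median of 0.68. At Week 3, when the HFC array was bright and the HF5 array dim, it differed by 6.68.

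In HF20, 0 of the 9 genes passed, again as 0% of all genes, and 3 had an unadjusted p under 0.05, against 33.1% of all genes. These were Igf1, 1.05 higher (SE 0.38, p = 0.0114, adjusted p = 0.118) and higher at 6 of 6 weeks, Bmp4 at -1.49 (SE 0.61, p = 0.0234, adjusted p = 0.123), and Vegfa at 1.82 (SE 0.84, p = 0.0417, adjusted p = 0.141). Il6 was at -4.28 (SE 2.09, adjusted p = 0.154). HF20 held 4 bright arrays of 6 and HFC 1 of 6 at these weeks. With the class in the model Vegfa was at 0.07 and Il6 at -0.02, Bmp4 was at -0.98 (SE 0.67) and Igf1 at 0.46 (SE 0.34). The summed endothelial level was 3.59, 4.15 and 7.27 (lowest, median and highest) over the 6 HF20 arrays. Over the 10 HFC arrays, which include those before Week 3, it was 4.46, 6.95 and 7.40, so the groups overlapped. Leaving aside the HF75 array of Week 3, it was 3.59 to 4.82 on the bright and 6.28 to 7.68 on the dim arrays of all groups. Without the HF75 array of Week 3, 4 genes had an unadjusted p under 0.05, with Il6 added (-4.28, SE 2.03, p = 0.0466 by limma). The smallest was that of Igf1 (p = 0.00158, adjusted p = 0.115). With that array in, 33.1% of all genes had one, and the share of all genes without it is not given here. Leaving out Week 3 altogether brought Bmp4 (-1.79) and Igf1 (1.11) past the threshold, in a fit that called 3568 genes.

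In HF75, 0 of the 9 genes passed, with 0% of all genes, and 0 had an unadjusted p under 0.05, against 9.15%. Nrg4 was at -1.54 (SE 0.92, adjusted p = 0.58) and Vegfa at -1.32 (SE 0.84, adjusted p = 0.598), both lower at 5 of 6 weeks. Without the HF75 array of Week 3 they were at -0.85 (SE 0.89) and -0.88 (SE 0.87), Il6 moved from 1.77 to 0.65 and Gdf15 from 1.21 to 0.40. For Igf1 the sign turned, from 0.28 to -0.15. Tested for any difference among the 5 groups, 0 of the 9 passed, where 0.00458% of genes did, and Vegfa, Bmp4, Nrg4 and Il6 had an unadjusted p under 0.05, as had 32.4% of genes. The F of Vegfa was 4.20 (p = 0.0107, adjusted p = 0.102 by limma). Without the HF75 array of Week 3 again 0 of the 9 passed, and those with an unadjusted p under 0.05, as 28.3% of genes had, were Igf1 (F = 5.43, p = 0.00338, adjusted p = 0.143), Bmp4 (F = 4.57) and Vegfa (F = 3.45), no longer Nrg4 (p = 0.0906) or Il6 (p = 0.0626).

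**Figure D4:**
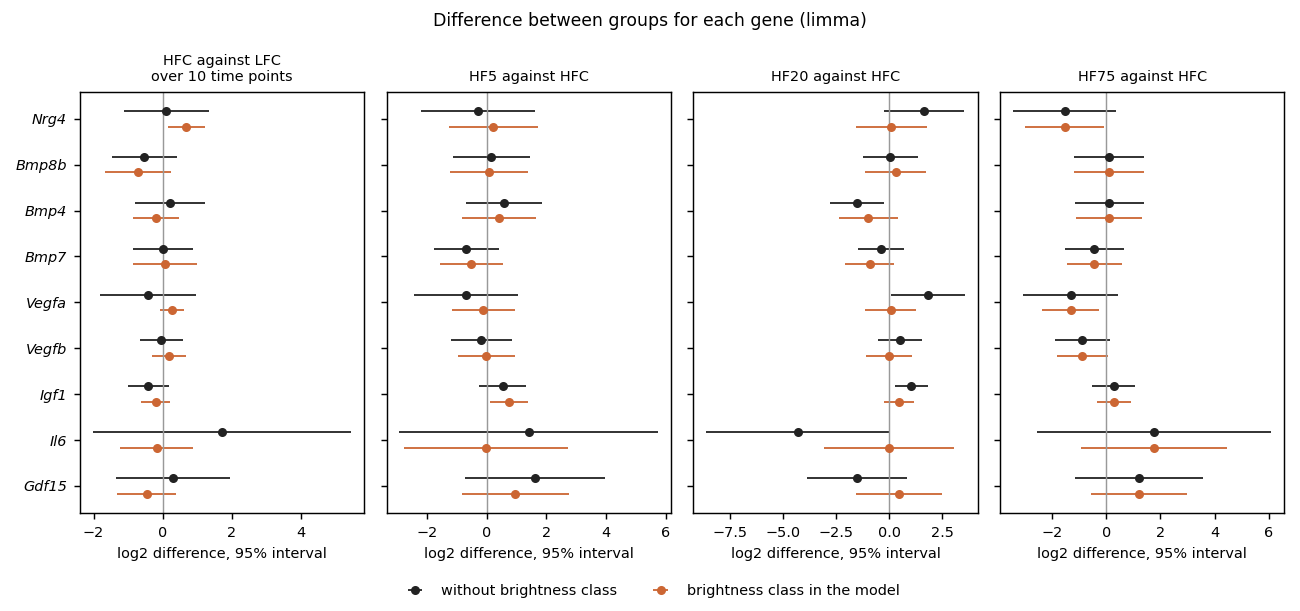
Log2 difference between groups for each of the 9 genes (x axis, with 95% intervals from limma) in 4 comparisons, without the brightness class (black) and with it as a term in the model (orange). In HF20 against HFC, Vegfa moves from 1.82 to 0.07 and Il6 from -4.28 to -0.02 once the class is in the model.

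The receptors, inhibitors and targets of these factors were counted from lists of 73 genes on the array, of which 68 were tested. In each of the 8 comparisons of groups, slopes and products 0 of them passed, and over the 10 time points 2 had an unadjusted p under 0.05, or 2.94% of them beside 6.96% of all genes. These were Bmp3, a bone morphogenetic protein that opposes others of its family, 1.11 higher in HFC (SE 0.26, p = 0.000998, adjusted p = 0.643), and Fst, the activin and BMP antagonist follistatin, at -0.66 (SE 0.24, p = 0.0162, adjusted p = 0.643). The median of the 68 genes was 0.18, beside 0.06 for all genes tested.

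Between bright and dim arrays, without the HF75 array of Week 3, 9 of the 68 rose and 39 fell, with a median of -1.10. That is 13.2% and 57.4% of them, beside 25.5% and 38.6% of all genes tested, whose median was -0.31. All 5 receptors of the VEGF family fell (median -2.58), with Flt1 at -2.79, Kdr at -2.58 and Flt4 at -2.70, while the ligand Vegfa rose. Of 6 genes of the IL6 receptor and its signal 5 fell, among them Socs3, the feedback inhibitor induced by the pathway, at -6.78 (SE 0.45). Of 10 BMP receptors and Smads 8 fell and Bmpr1a rose by 2.16, and of the 4 BMP target genes Id1 (-1.35), Id3 (-2.07) and Id4 (-1.81) fell. Of the BMP inhibitors 4 of 6 fell, Smad7 (-2.93) among them, and Fst rose by 1.14. Of 4 ErbB receptors Erbb2 (-2.14) and Erbb4 (-1.43) fell, while Egfr was at 0.59 and Erbb3 at 0.01, neither passing. Of 13 IGF receptors and binding proteins 3 rose and 5 fell: Ghr, the growth hormone receptor, rose by 2.11, Insr by 1.73 and Igfals by 2.22, and Igfbp4 was at -3.59. Of 11 other batokines 3 rose, among them Ptgds (3.93) and Pm20d1 (3.87), and 2 fell, Nrg1 (-5.93) and Pltp (-1.65). Flt1, Kdr and Flt4 are genes of endothelial cells, whose 6 markers fell on the same arrays.

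The remaining probes gave the same directions between the classes. The other 3 Vegfa probes were higher on the bright arrays by 3.89, 3.73 and 2.21, the other Vegfb probe by 2.55, the other 2 Igf1 probes by 1.04 and 1.18, and the other Bmp7 probe by 0.99. Between the diets over the 10 time points, the 2 Bmp7 probes differed in sign, at 0.02 and -0.56.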

How the data were processed

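Per the labels, total RNA of brown adipose tissue carried Cy3 and was hybridised in 1 colour to Agilent arrays. The deposited scanner files hold intensity values from Feature Extraction (10.5.1.1 in their headers, 9.1 in the submitters' processing notes), of which the authors' processed signal, background-corrected and not yet scaled across arrays, was used. In the deposited series table the authors give log2 values against the LFC array of each time point. Its Week 15 columns correlated with the scanner files, probe by probe, at -0.00478 to 0.00293 and the other 24 columns at 0.997 to 1.000, so it served only as an alternative, without Week 15. No value column was left unmapped (0). The number of arrays limits the precision, as does signal over background.

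Groups, days and doses came from the sample labels, and weeks were counted from Day 14, so Day 14 and Week 0 are the same day. The log2 processed signal minus each array's 75th percentile was used, with the highest-mean probe per gene name. A gene entered the tests if well above background on 6 or more of the 38 arrays, which left 21856. limma 3.58.1 in R 4.3.3 with the data.table package (1.17.8) (lmFit and eBayes, two-sided, Benjamini-Hochberg over all genes tested, threshold 0.05) was fitted with the time point or week as a block, which rests on 1 array per group and time point. The trend over days had the diet in the model and no such block. The fits used the 20 LFC and HFC arrays or the 30 arrays of Weeks 3 to 18, and were tested on simulated data. Adjusted p values come from limma. The series text names 3 biological replicates, of which the labels give 1 array each per group and time point here.

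The 9 genes, the lists and the brightness boundary were chosen with earlier results of these data known. The 9 genes are all named, with the 3 genes most like each, and of the lists the 2 genes with the smallest p where none passed. Those of the lists named between bright and dim arrays were chosen after their values were seen. Alternatives were other background corrections, scalings, filters, blocks and left-out time points, and terms for brightness. Those with the brightness class as a term or without the HF75 array of Week 3, and those of bright against dim arrays, were chosen after seeing the data. On the array but too faint to test were Bmpr1b, Grem1, Bmp8a, Gfral and Mstn.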

Additional observations from a re-analysis of the deposited data

Results flagged for a closer look

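The level of Nrg4 on the HF75 array of Week 3, -2.84, lay apart from the other 5 HF75 arrays by a gap that took up most of the range of the group (Dixon's test). It was the 1 such value in 45 tests of a gene within a group, and chance alone gives such a gap in about 1 group in 20. The same array was the one with low Ucp1 and Cidea, and the part of its tissue make-up in the Nrg4 value was not tested.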

How the results depend on the processing

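Across 974 values of the 9 genes in the comparisons of groups and slopes recomputed under alternatives, 106 changed sign, 33 of them by over 1 SE and 73 within it, and 2 passed the threshold that had not. No gene passed between HFC and LFC, in HF5 or in HF75 under any alternative run. In HF20 the number of the 9 genes passing was 0 to 2 over the left-out weeks. It was 2 when Week 3 was left out (Bmp4 at -1.79, adjusted p = 0.0373, and Igf1 at 1.11, adjusted p = 0.0409), in a fit that called 3568 genes. With the slide as a random block the test over the 5 groups called 1 of the 9, Vegfa, in a fit that called 3213 genes. The fit with no replicate block, in which time points were not paired, changed no call, with 0 of the 9 genes passing in each comparison. Signs that turned over the 10 time points of HFC against LFC were those of Bmp7 with quantile normalization (-0.47), Bmp8b with normexp (0.31) and the floor (0.22), and, with brightness as a covariate, Il6 (-0.56) and Vegfa (0.51). With time points of 1 brightness class they were Gdf15 (-0.73), Vegfa (0.40) and Vegfb (0.32), and with the class in the model Gdf15 (-0.46), Il6 (-0.17) and Vegfa (0.27). Over weeks 3 to 18 they were Bmp8b with normexp (0.50) and the floor (0.50), Gdf15 (-1.32) and Il6 (-0.55) with the covariate, and Gdf15 (-1.33), Il6 (-0.48), Nrg4 (0.71) and Vegfa (0.43) within 1 class. With the class in the model they were Gdf15 (-1.22), Il6 (-0.48) and Nrg4 (0.89). In HF5 Nrg4 turned within 1 class (0.48). In HF20 Bmp8b turned with normexp (-0.79), the floor (-0.49) and the deposited table (-0.59), and within 1 class Gdf15 (0.51), Il6 (2.23), Nrg4 (-0.40), Vegfa (-0.094) and Vegfb (-0.23), with Gdf15 also in the class model (0.45). In HF75 Bmp4 turned without Week 3 (-0.76). Of 45 further values between bright and dim arrays, set against the fit of all 38, Bmp7 turned with normexp (-1.14) and Bmp8b with quantile normalization (0.29). There 5 passed that had not, Bmp8b with normexp (-2.17) and the floor (-1.90) and Vegfb in LFC and HFC alone (1.61), with normexp (1.69) and without the HF75 array of Week 3 (1.28), and 2 no longer passed, Bmp7 in LFC and HFC alone (0.84) and with the floor (0.35). The cause was not tested. Counts over all genes moved too: 368 genes trended over days and 2 to 1721 under alternatives, the product of diet and day called 0 and up to 668, HF20 0 and up to 3568, and the test over the 5 groups 1 and up to 3213, while HFC against LFC over weeks 3 to 18 called 2 and 0 to 4, over the 10 time points 0 and up to 5, and HF75 0 and up to 1. Signal over background limits Bmp8b on both classes of array, Bmp7 on dim arrays and Il6 on bright arrays, where values lie close to background.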
